A study of Mus musculus with 12 samples.

Results

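The genes described here are 38 genes of the extracellular matrix and of the contractile cytoskeleton, read in bone marrow-derived macrophages (BMDMs) with and without an enhancer deletion upstream of Tnf, the gene of the cytokine tumor necrosis factor alpha. They were 38 of the 48526 genes in the count table, and all 38 were found by symbol in the GENCODE annotation of GRCm38. The members were chosen from results of these same libraries: Acta2 and Ccn2 were picked because earlier results put them among the genes higher in KO BMDMs after LPS, and the other 36 were listed beside them as genes known from fibroblasts, smooth muscle and other stromal cells. The list has no threshold of its own, so values of the KO to WT comparisons are given as a description. The study's criteria are applied to them to count members beside the share of all genes, and no p-value of these comparisons is printed or read as evidence. The responses to LPS within a genotype were tested for the members other than Acta2 and Ccn2, although they rest on the same libraries.

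Total RNA was sequenced from BMDMs of homozygous HSS9 KO mice, in which a stretch upstream of Tnf (the TNF-9 enhancer region) is deleted in every cell, and of WT mice. There were 4 groups of 3 libraries: WT untreated (WT UT), KO untreated (KO UT), WT with LPS for 6 hr (WT LPS) and KO with LPS for 6 hr (KO LPS). LPS, lipopolysaccharide from the outer membrane of bacteria, is a standard stimulus of macrophages, and untreated cells received PBS. The dose used for these libraries is not stated. All groups were grown from femur and tibia marrow of young adult male mice for 6 d in medium with 10% serum and 20% medium conditioned by L929 cells, a mouse fibroblast line whose secreted CSF1 drives macrophage growth. KO mice were bred as homozygotes, and WT mice are littermates by the labels but purchased C57BL/6 mice by the methods of the study, so a shared background is not assured. Neither source says whether the 3 libraries of a group came from separate mice, and p-values then measure the spread between these libraries, which may be technical. Library totals were between 26154533 and 36423921 counts. The deleted stretch is in no gene of the table, so the genotype was checked on Tnf itself, which was lower in KO LPS than in WT LPS by a log2 fold change of -1.04 ± 0.060 (SE).

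Fibroblasts, pericytes and smooth muscle cells build the matrix between cells. They secrete fibrillar collagens for strength, collagen VI and small proteoglycans that organise the fibrils, and glycoproteins that bind cells to them, and enzymes fold and crosslink the chains. Contractile forms of such cells express smooth muscle actin (Acta2) and its partners, which are controlled by serum response factor. Macrophages make some of these proteins too, among them thrombospondin 1 and fibronectin, and a bone marrow culture can keep a few stromal cells. In bulk RNA, fewer cells of a type and less RNA per cell cannot be told apart.

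Levels are given as CPM, a gene's count scaled to library size with TMM factors, and between genes as RPKM, the same value per kilobase of annotated exon. Per length the most abundant member was Thbs1, the gene of thrombospondin 1, at a mean RPKM of 121 over 12 libraries. It was followed by Cnn2 (18.9), Lox (17.4), Col18a1 (15.6) and Tpm1 (5.88). In all, 13 members had a mean RPKM of at least 1 and 25 did not. Thbs1 alone took between 56.2% and 78.3% of the members' summed CPM in each library, so the sum over all 38 followed this 1 gene and differed little between genotypes, at 1379 ± 86.8 CPM (SD, n = 3) in WT LPS and 1384 ± 61.8 in KO LPS. Of 17 members taken as fibroblast-defining, Lox and Pdgfrb (1.91) had a mean RPKM over 1 and Fbn1 had 0.554. Others were far lower: type I collagen Col1a1 had 0.103, Pdgfra 0.0314, and Lum, which encodes lumican, had between 0 and 6 counts. Lum and the smooth muscle gene Cnn1 (0 to 5 counts) did not pass the filter on low counts, which left 36 members with a test. A member that passed only through the group where it was high had to differ, and counts over the 36 are not counts over the list.

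The label of the cultures was checked against markers of macrophages, which over 8 genes were at 28442 to 29466 summed CPM in WT UT, 33055 to 34150.0 in KO UT, 23060.1 to 24473 in WT LPS and 25559 to 27146 in KO LPS. This sum, of which Lyz2 made 23442 CPM in WT UT, was higher in KO without overlap in both conditions. So were 6 of the 8 genes in each, beside 21.6% of all genes untreated and 14.1% after LPS. Csf1r, the CSF1 receptor gene, was lower in KO UT without overlap (-0.13 ± 0.046), as were 19.1% of all genes. The part of the macrophage markers in the members' differences was not tested. Of 26 other mesenchymal genes, Mfap4 and Eln, the elastin gene, had 0 counts in every library, and 8 in all never passed 3 counts, Thy1 and Dpt among them. Such counts, 3 or fewer, are called the floor. The summed CPM of the list was 20.4 to 21.6 in WT UT, 22.3 ± 1.10 (SD, n = 3) in KO UT, 285 to 300.3 in WT LPS and 287 to 303 in KO LPS. After LPS most of it came from Pdpn, a surface glycoprotein at a mean of 272 CPM in WT LPS and 269 in KO LPS. Of these 26 genes 13 were tested. Beside 0.586% of all genes, 5 of the 13 met the criteria given in the next paragraph as higher in KO LPS than in WT LPS. Among them were Col8a1, a network-forming collagen (1.99 ± 0.37 on the log2 scale), and Prrx1, a transcription factor of mesenchymal cells (1.76 ± 0.50). Prrx1 had 11, 8 and 2 counts in WT LPS against 13, 36 and 32 in KO LPS. Of the 13, 10 lay above 0 and 3 below. Every KO LPS library was above every WT LPS library in 8 and below in 2, beside 14.1% and 14.9% of all genes. Untreated, 2 of the 13 were called higher in KO, beside 1.02% of all genes. Fap, a protease of activated fibroblasts, was at 11.2 ± 0.802 CPM in WT LPS and 7.81 ± 1.01 in KO LPS (-0.53 ± 0.19, not called). Markers of smooth muscle (6 genes, 3 tested), pericytes (3 genes, 1 tested) and osteoblasts (5 genes, 1 tested) met those criteria for 0 genes in either genotype comparison by edgeR and by DESeq2, which gave no adjusted p for the smooth muscle gene Actg2, with 1, 0 and 0 genes at an unadjusted p under 0.05 after LPS and 1, 0 and 1 untreated, and their summed CPM did not exceed 4.36, 1.34 and 9.50. Whether the members' RNA came from stromal cells was not tested.

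After LPS most low-level members were higher in KO than in WT. Genes were called by the study's criteria, an adjusted p under 0.05, here from edgeR, with a log2 fold change beyond 1 in either direction. In KO LPS against WT LPS 21 of 36 members were called higher, beside 0.586% of the 15523 genes tested, and 0 were called lower, beside 0.664%. DESeq2 called 20 higher and 0 lower, with no adjusted p for Ogn and Pdgfra, and 1 member, Thbs1, was lower at an unadjusted p under 0.05. The members' median log2 fold change was 1.24 and that of all genes -0.0075. In 30 members every KO LPS library was above every WT LPS library in CPM, beside 14.1% of all genes, and in 1 member, Thbs1, every one was below, beside 14.9%. Nothing is read from these counts, since the members were chosen on this comparison. The called members were the low ones: of the 6 members with a mean of at least 10 CPM 0 were called, with log2 fold changes between -0.22 and 0.49, and the 21 calls were all among the 30 members under 10 CPM, whose median was 1.37.

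**Figure D1:**
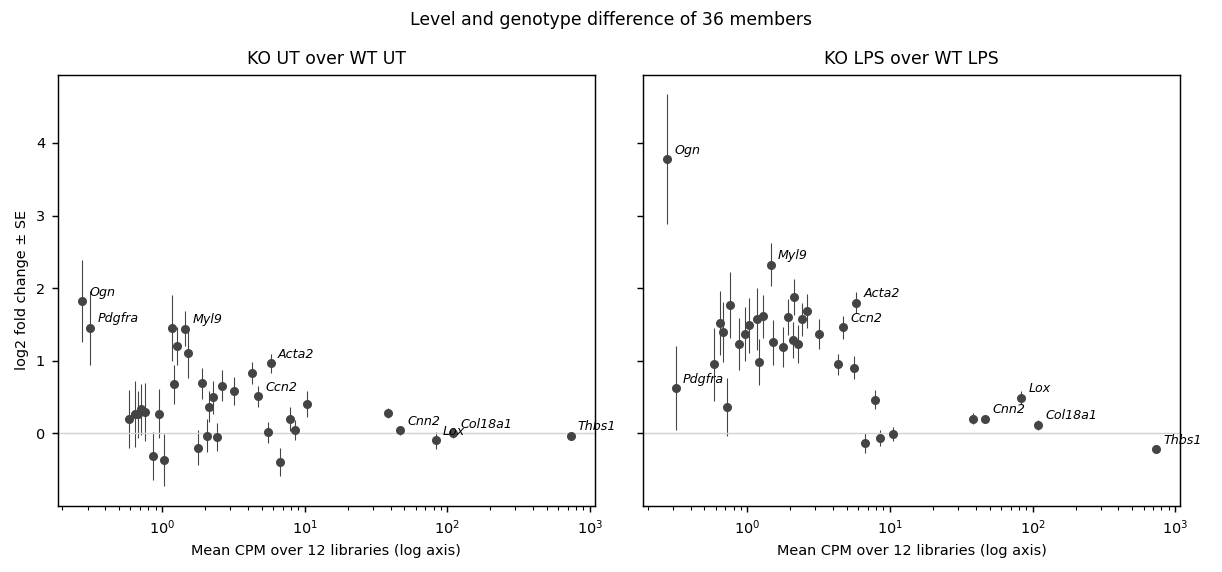
Mean CPM of 36 members over 12 libraries (log axis) against the log2 fold change ± SE of KO over WT, untreated on the left and after LPS on the right; each point is 1 member. After LPS the members under 10 CPM mostly lay above 1, and the 6 above 10 CPM, Thbs1 among them, lay between -0.22 and 0.49.

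Without LPS the same comparison gave smaller differences. In KO UT against WT UT edgeR called 6 members higher, beside 1.02% of all genes, and 0 lower, beside 0.799% (DESeq2 4 and 0, with no adjusted p for Ogn and Pdgfra, and 0 lower at an unadjusted p under 0.05), with a median log2 fold change of 0.28 for the members and 0.0014 for all genes. The called members were Myl9, Tagln, Dcn, Ogn, Pdgfra and Tm4sf1. In 12 members every KO UT library was above every WT UT library, beside 21.6% of all genes. Myl9 and Tagln were called without any 1 library. The other 4 were not, each in at least 1 such fit, and without WT UT replicate 3 the count was 3, with Dcn at 1.11, Pdgfra at 1.45 and Tm4sf1 at 1.02. With the replicate number as a block Pdgfra had a log2 fold change of 1.42 and was not called. RLE scaling turned the split over all genes from 159 higher and 124 lower to 134 and 168, and library totals without a scaling factor to 119 and 231, with 6 and 4 members higher.

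Of the contractile members, the one named at the start was Acta2 (ENSMUSG00000035783, chr19:34241090-34255590, GRCm38, minus strand), which encodes smooth muscle actin. Its level was 3.62, 3.11 and 3.23 CPM in WT UT, 5.92, 7.55 and 5.97 in KO UT, 2.76, 2.87 and 3.35 in WT LPS and 9.54, 10.9 and 10.8 in KO LPS. KO libraries lay above WT libraries in both conditions, with no overlap, by log2 fold changes of 0.96 ± 0.13 (SE) untreated and 1.80 ± 0.14 after LPS. Myl9 (ENSMUSG00000067818, chr2:156775420-156781658, plus strand), a regulatory light chain of myosin, was at 0.772, 0.772 and 0.850 CPM in WT UT and 1.99, 2.47 and 2.07 in KO UT. After LPS it was at 0.447, 0.539 and 0.424 in WT and 3.10, 2.14 and 1.87 in KO. The KO groups had 2.73 times the WT mean untreated and 5.04 times after LPS, the widest gap among the contractile members tested. Tagln, the actin-binding transgelin, was at 0.596, 0.853 and 0.518 CPM in WT LPS and 1.72, 2.14 and 2.16 in KO LPS, and Cald1, caldesmon, at 1.15, 0.898 and 0.660 and 2.87, 3.19 and 4.06, each without overlap. Tagln overlaps Pcsk7 on the other strand, and whether the counting used strand is not given in the sources used here, so reads of both genes could not be told apart.

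The abundant or shared cytoskeletal members differed less. Tpm1, a tropomyosin of many cell types, was at 23.1 ± 1.08 CPM in WT LPS and 26.5 ± 1.80 in KO LPS, and Cnn2, the calponin that macrophages express, at 59.2 ± 1.76 and 68.0 ± 2.18. Their log2 fold changes were 0.20 ± 0.077 and 0.20 ± 0.056. Tpm2 had 0.36 ± 0.40 with overlapping libraries. The contractile sum over 8 genes was 84.6, 80.2 and 84.0 CPM in WT UT, 105, 102 and 93.5 in KO UT, 91.0, 87.2 and 85.3 in WT LPS and 113, 116 and 111 in KO LPS, higher in KO in both conditions without overlap.

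**Figure D2:**
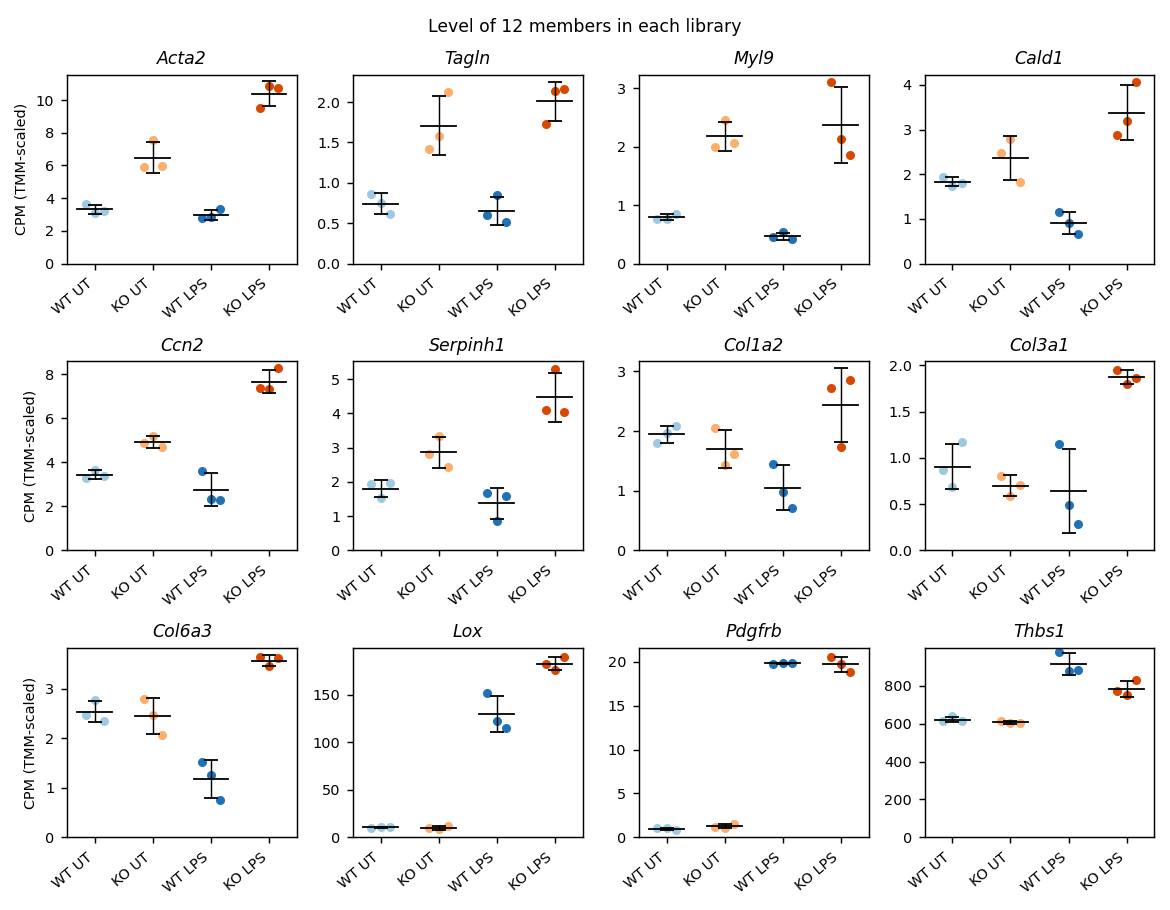
CPM of 12 members in each library by group; points are libraries, the line is the mean and the bar 1 SD (n = 3). Acta2, Tagln and Myl9 were higher in KO with and without LPS, whereas Col6a3 had means of 2.54 CPM in WT UT, 2.45 in KO UT, 1.18 in WT LPS and 3.57 in KO LPS, and Pdgfrb and Thbs1 followed LPS in both genotypes.

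Serum response factor binds the CArG box, and this motif was searched in the 250 bases before the RefSeq start site, on both strands at once since the motif is its own reverse complement. Only the strict form was searched, CC and GG with only A or T between them. A variant box would be missed, and members without a window were not searched. Windows were given for 27 members (31 windows), and 2 members held a CArG box, Cnn2 and Myl9, or 6.45% of the members' windows beside 482 of all 32851 windows (1.47%). The stretches below are the 150 bases before the first annotated exon base of each gene (GRCm38.p6, from RefSeq, plus strand), with the CArG box in capitals. They are shown because these were the 2 members with a match.
Myl9, chr2:156775270-156775419: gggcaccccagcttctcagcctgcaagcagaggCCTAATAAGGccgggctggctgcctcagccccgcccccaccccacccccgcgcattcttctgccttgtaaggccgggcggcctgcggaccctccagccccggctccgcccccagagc
Cnn2, chr10:79988434-79988583: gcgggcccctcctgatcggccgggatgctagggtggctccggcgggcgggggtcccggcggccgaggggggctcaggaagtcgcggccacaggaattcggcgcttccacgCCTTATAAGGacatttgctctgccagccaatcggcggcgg
The box of Myl9 ends 108 bases before the exon and that of Cnn2 31 bases before it. After LPS the KO to WT ratio of means was 5.04 for Myl9 and 1.15 for Cnn2, and whether the box bears on either was not tested. A match is a description of the letters and not a bound site, and a window without a match says only that these letters are absent from it.

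Fibrillar collagens, the main tensile fibres of connective tissue, were low in every library. Summed over 5 genes they were at 6.97, 6.66 and 6.65 CPM in WT UT and 8.09, 8.04 and 8.22 in KO UT. After LPS they were at 6.26, 4.80 and 3.30 in WT and 12.6, 11.0 and 12.1 in KO. The KO LPS sum was 2.49 times the WT LPS sum, and the 3 WT LPS libraries were spread more widely than those of any other group. Col3a1, type III collagen (ENSMUSG00000026043, chr1:45311538-45349706), had 37, 31 and 55 counts in WT UT and 28, 20 and 28 in KO UT. After LPS it had 31, 11 and 6 in WT and 51, 48 and 51 in KO. The log2 fold change of KO over WT was -0.37 ± 0.36 untreated and 1.49 ± 0.37 after LPS, when the libraries did not overlap. The type I chains gave 1.40 ± 0.42 for Col1a1 and 1.19 ± 0.28 for Col1a2 after LPS, against 0.26 ± 0.33 and -0.20 ± 0.24 untreated. The type V chains, which start fibril assembly, gave 0.98 ± 0.31 for Col5a1, not called, and 1.37 ± 0.20 for Col5a2. Col5a2 was at 2.50, 1.93 and 1.65 CPM in WT LPS and 5.79, 5.07 and 4.98 in KO LPS, and it was the fibrillar collagen whose call needed no single library.

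Collagen VI, a beaded filament around cells, showed the same order in its chains. Col6a3 (ENSMUSG00000048126, chr1:90765923-90843971) was at 2.48, 2.78 and 2.36 CPM in WT UT and 2.80, 2.47 and 2.07 in KO UT, which overlapped. After LPS it was at 1.53, 1.26 and 0.754 in WT and 3.64, 3.45 and 3.62 in KO, without overlap. The log2 fold changes after LPS were 1.57 ± 0.23 for Col6a3, 1.23 ± 0.36 for Col6a1 and 1.77 ± 0.46 for Col6a2, and the summed level of the 3 chains in KO LPS was 2.91 times that in WT LPS. Untreated, the ratio of sums was 0.972.

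**Figure D3:**
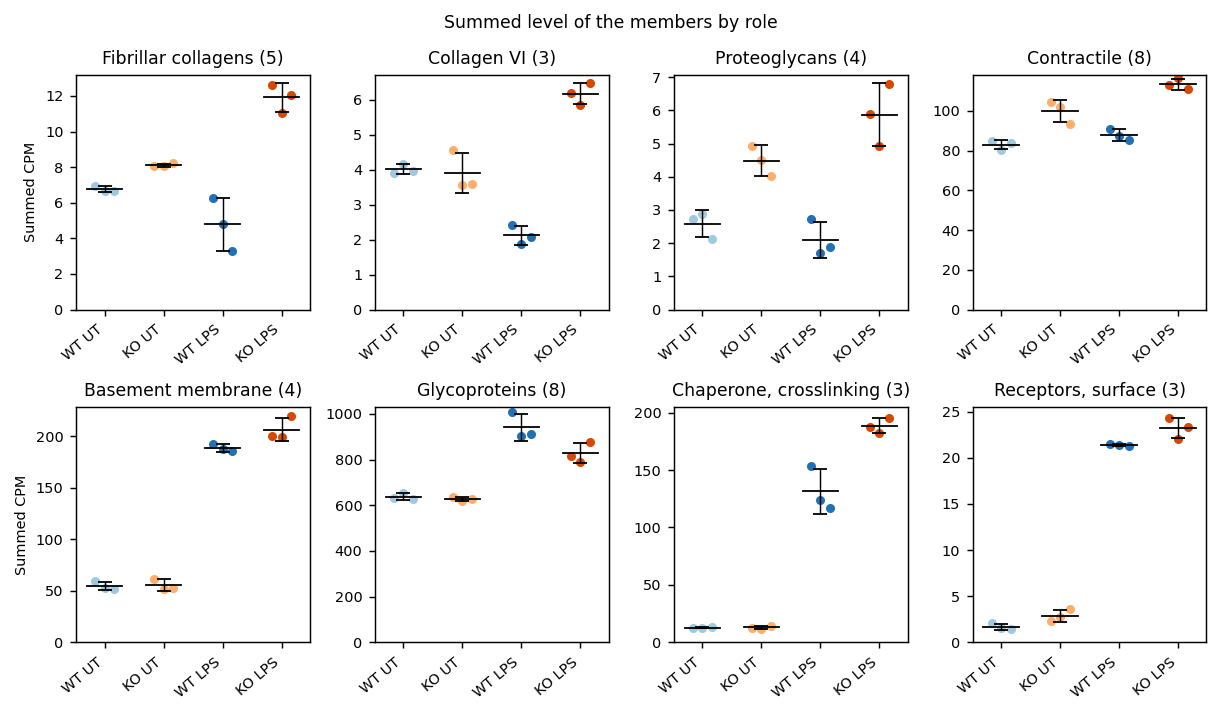
Summed CPM of the members by role in each library, by group; points are libraries, the line is the mean and the bar 1 SD (n = 3), and the number in each title is the count of genes. Fibrillar collagens, collagen VI and proteoglycans were at 11.0 to 12.6, 5.85 to 6.47 and 4.92 to 6.80 CPM in KO LPS, each above all WT LPS libraries, while glycoproteins, led by Thbs1, were lower in KO LPS.

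Among the small proteoglycans that coat collagen fibrils, Dcn (decorin) was higher in KO with and without LPS. It had 7, 38 and 9 counts in WT UT, 56, 29 and 33 in KO UT, 29, 15 and 13 in WT LPS and 62, 59 and 71 in KO LPS, and the untreated libraries overlapped. Ogn, mimecan, had 1, 9 and 9 counts in WT UT, 12, 14 and 29 in KO UT, 1, 1 and 0 in WT LPS and 14, 11 and 10 in KO LPS. It was thus at the floor in every WT LPS library. The 35 counts of KO LPS against 2 of WT LPS gave a scaled ratio of 15.4, with an exact Clopper-Pearson 95% interval of 3.95 to 132 that covers counting error only. Ogn had 10 or more counts only in KO libraries and so passed the filter through them. Its ratio is thus a description, and the interval is not a test of the genotype. Ogn lies within Cenpp, which is on the other strand. Bgn, biglycan, was at 1.60, 0.987 and 1.08 CPM in WT LPS and 2.91, 2.06 and 3.77 in KO LPS, and gave 1.23 ± 0.27 after LPS and 0.49 ± 0.23 untreated. Lum had 0, 0 and 4 counts in WT LPS and 2, 6 and 2 in KO LPS, and 0 in every untreated library.

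The glycoprotein and matricellular members split by level. Ccn2 (ENSMUSG00000019997, chr10:24595442-24598683), a secreted factor of growing and contracting stromal cells, was at 3.30, 3.66 and 3.38 CPM in WT UT, 4.86, 5.20 and 4.68 in KO UT, 3.61, 2.33 and 2.31 in WT LPS and 7.40, 7.32 and 8.27 in KO LPS. KO was above WT without overlap in both conditions, by 0.51 ± 0.15 untreated and 1.46 ± 0.16 after LPS. The other called members of the group after LPS were Sparc, Postn and Thbs2. Sparc, the collagen-binding osteonectin, was at 1.08, 0.942 and 0.848 CPM in WT LPS and 2.41, 2.55 and 3.80 in KO LPS (1.60 ± 0.25). Postn, periostin, which links collagen to other matrix proteins, was at 1.71, 1.79 and 1.87 CPM in WT UT, 1.53, 2.00 and 1.72 in KO UT, 1.97, 1.17 and 0.942 in WT LPS and 3.98, 2.96 and 3.22 in KO LPS (1.29 ± 0.24). Thbs2, a relative of Thbs1 at far lower level, gave 1.37 ± 0.37. All these members were higher in every KO LPS library than in any WT LPS library. Fn1, fibronectin, and Igfbp7, an insulin-like growth factor binding protein, were below the fold limit at 0.90 ± 0.16 and 0.95 ± 0.15. Thbs1 went the other way, with 979.9, 877 and 886 CPM in WT LPS and 775, 749 and 833 in KO LPS, a log2 fold change of -0.22 ± 0.054. Fbn1, the microfibril protein fibrillin 1, gave -0.14 ± 0.13 with overlapping libraries.

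Of the proteins that act on collagen chains, Serpinh1, the collagen chaperone HSP47 (ENSMUSG00000070436, chr7:99345376-99353239), was at 1.94, 1.52 and 1.96 CPM in WT UT, 2.80, 3.35 and 2.43 in KO UT, 1.68, 0.853 and 1.60 in WT LPS and 4.10, 5.29 and 4.02 in KO LPS. After LPS it stood 3.25 times higher in KO without overlap. The crosslinking enzyme Loxl2 gave 1.52 ± 0.44 after LPS and Lox, which is far more abundant, 0.49 ± 0.089. The basement membrane members, which form the sheet under epithelia and vessels, were called in neither genotype comparison: after LPS Col18a1 gave 0.12 ± 0.070, Col4a1 0.46 ± 0.13, Col4a2 -0.064 ± 0.11 and Nid1 0.95 ± 0.50. Col4a1 and Col4a2 start head to head and share 22 bases, and Col18a1 overlaps Slc19a1, so their counts could take reads of the neighbour. Of the surface members, Tm4sf1, a small membrane protein, had 34, 15 and 22 counts in WT UT, 32, 39 and 53 in KO UT, 39, 26 and 27 in WT LPS and 87, 51 and 112 in KO LPS (1.26 ± 0.31 after LPS). The platelet-derived growth factor receptors Pdgfra and Pdgfrb, both markers of mesenchymal cells, gave 0.63 ± 0.57 and -0.0086 ± 0.098. Pdgfra had 10, 5 and 8 counts in WT UT, 8, 16 and 28 in KO UT, 6, 8 and 3 in WT LPS and 10, 10 and 10 in KO LPS.

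Single libraries moved these calls, and no called member changed sign without 1 of them. Of the 21 members called after LPS, 12 were called without any 1 of the 6 libraries, namely Serpinh1, Col6a3, Acta2, Cald1, Myl9, Tagln, Col5a2, Ccn2, Postn, Sparc, Bgn and Ogn. Without WT LPS replicate 3 the count was 15, with Col1a1 at 1.10, Col1a2 at 0.98, Col3a1 at 1.15, Dcn at 1.43, Loxl2 at 1.33 and Thbs2 at 1.20. Without KO LPS replicate 3 it was also 15, with Col1a1, Loxl2, Dcn, Thbs2, Col6a2 (1.51) and Tm4sf1 (1.01) not called. Col6a1 was not called without WT LPS replicate 2 (1.08) or without KO LPS replicate 1 or 2 (1.17 and 1.21).

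The WT LPS libraries were spread further than those of the other groups. Their counts over all genes gave a chi-square per degree of freedom of 46.3 between replicates 1 and 3, 17.4 between 1 and 2 and 12.4 between 2 and 3, beside 3.81 to 14.0 for pairs within the other groups. Among 36 members replicate 1 had the highest CPM of the 3 in 24 and the lowest in 3, while replicate 3 had the lowest in 24 and the highest in 3. The percentage of counts that fell on small structured RNAs (the annotation types misc_RNA and ribozyme, among them 7SL and 7SK RNA) moved with this spread. The share was 3.95%, 5.25% and 6.75% in the WT LPS libraries 1, 2 and 3, whose fibrillar collagen sums were 6.26, 4.80 and 3.30 CPM. It was 3.16% to 3.31% in KO LPS, 2.93% to 3.18% in WT UT and 6.53% to 7.73% in KO UT, where the collagen sums were 8.04 to 8.22 CPM. In KO LPS the share was thus below that of each WT LPS library, and in KO UT it was above that of each WT UT library. With this share as a covariate, chosen after seeing the data, 7 members were called higher in KO LPS in place of 21, with a median log2 fold change of 0.68 in place of 1.24, beside 47 of all 15523 genes in place of 91. Of the 21 calls 15 were lost in that fit, and the 7 also held a member not called without the covariate. Among the 15, the fold changes under 1 were those of Col3a1 (0.23), Col1a2 (0.53), Postn (0.58), Col1a1 (0.64) and Loxl2 (0.72). The others, from 1.02 in Tm4sf1 to 1.67 in Ogn, no longer passed the limit on p. In KO UT 0 were called in place of 6, although the median was 0.91 in place of 0.28, so that the untreated median stood above the one after LPS. The median difference of the LPS responses was -0.32 in place of 0.77. Within groups the share varied mostly among the 3 WT LPS libraries, on which that correction mainly rests. The part of library composition in the result was not tested further. Neutrophil markers, summed over 8 genes, were at 21.1 ± 0.806 CPM in WT UT, 46.1 ± 3.01 in KO UT, 63.3 ± 14.9 in WT LPS and 71.8 ± 4.76 in KO LPS. Of these genes 6 were tested, and untreated 4 were called higher in KO, beside 1.02% of all genes (DESeq2 3). After LPS 0 were called by edgeR and by DESeq2, and 1 was higher at an unadjusted p under 0.05. DESeq2 gave no adjusted p for 1 gene in either comparison. The part of the neutrophil markers in the genotype differences was not tested. The megakaryocyte sum over 5 genes was 25.9 ± 1.84 CPM in WT UT, 44.3 ± 2.98 in KO UT, 64.4 ± 11.6 in WT LPS and 74.8 ± 1.53 in KO LPS, and the endothelial sum over 7 genes 131 ± 4.29, 95.3 ± 2.31, 138 ± 12.3 and 109 ± 5.87. Untreated, the megakaryocyte sum was higher in KO without overlap, as were all 4 of its genes tested, beside 21.6% of all genes. The endothelial sum was lower in KO without overlap in both conditions. It was mostly Kdr and Vwf, at 36.5 and 93.7 CPM in WT UT, while Pecam1 was higher in KO UT (0.73 ± 0.25). The part of both lists was not tested.

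**Figure D4:**
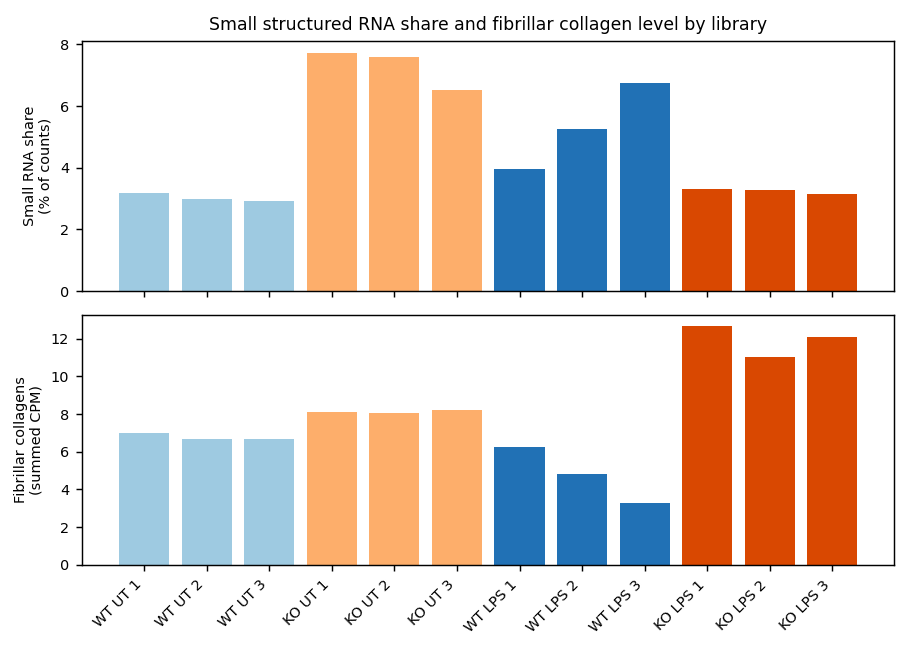
Share of counts taken by small structured RNAs (top, % of counts) and summed CPM of the 5 fibrillar collagens (bottom) in each of the 12 libraries, 1 bar per library, colored by group. In the WT LPS libraries 1 to 3 the share was 3.95%, 5.25% and 6.75% and the collagen sum 6.26, 4.80 and 3.30 CPM, whereas KO UT had both a high share and collagen sums of 8.04 to 8.22 CPM.

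LPS itself moved the members in both directions. In WT BMDMs 9 members were called higher after LPS, beside 19.1% of all genes, and 4 lower, beside 18.7%, with a median log2 fold change of -0.29 for the members and 0.047 for all genes. In KO BMDMs 13 were called higher, beside 17.7%, and 1 lower, beside 19.3%, with a median of 0.66 and -0.055 for all genes. The 9 members called higher in WT were called higher in KO as well, namely Col18a1, Col4a1, Col4a2, Lox, Cnn2, Fbn1, Igfbp7, Pdgfrb and Tm4sf1. Loxl2, Col6a1, Col3a1 and Dcn were called higher in KO and not in WT, and Nid1, Col6a3 and Col1a1 lower in WT and not in KO. The difference of these responses between the genotypes was fitted but is not read as evidence, since it holds the comparison on which the members were chosen. As a description, the KO response minus the WT response was 1.25 ± 0.64 for Loxl2, 1.54 ± 0.49 for Col6a1, 1.85 ± 0.52 for Col3a1, 0.13 ± 0.65 for Dcn, 0.75 ± 0.64 for Nid1, 1.63 ± 0.30 for Col6a3 and 1.14 ± 0.53 for Col1a1. The counts depend on the scaling, since TMM factors were higher in untreated than in LPS libraries. With library totals and no scaling factor the median of all genes was -0.62 in WT and -0.56 in KO. Of the members, 6 were then called up and 16 down in WT, with 7 up and 1 down in KO. The rises of Cnn2 (0.37 in WT and 0.68 in KO), Igfbp7 (0.48 and 0.75) and Tm4sf1 (0.64 and 0.94) were then not called in either genotype. The same was so in KO for Col3a1 (0.90), Col6a1 (0.51) and Dcn (0.62). The split over all genes in WT moved from 2971 up and 2899 down to 1687 up and 5455 down, and that in KO from 2741 and 3000 to 1794 and 5119.

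The largest increases were in genes of crosslinking, growth factor reception and microfibrils. Lox, the enzyme that crosslinks collagen and elastin, was at 9.75, 10.8 and 10.9 CPM in WT UT, 9.42, 8.28 and 11.5 in KO UT, 152, 123 and 115 in WT LPS and 182, 176 and 189.7 in KO LPS. It rose with LPS by a log2 fold change of 3.63 ± 0.10 in WT (edgeR adjusted p = 2.75e-18) and 4.22 ± 0.11 in KO (3.19e-19). Pdgfrb was at 1.05, 1.06 and 0.786 CPM in WT UT and 19.8, 19.9 and 19.8 in WT LPS, and at 1.16, 1.09 and 1.54 and 20.5, 19.8 and 18.8 in KO. The rise was 20.5-fold and 15.6-fold in the means (edgeR adjusted p = 6.91e-18 in WT and 3.14e-17 in KO). Fbn1 rose by 3.01 ± 0.16 in WT and 3.27 ± 0.17 in KO (edgeR adjusted p = 1.26e-13 and 1.03e-13). These calls stood under each alternative tried, with untreated and LPS libraries far apart in both genotypes.

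Basement membrane collagens rose with LPS in both genotypes. Col4a1 rose by 2.31 ± 0.15 in WT and 2.58 ± 0.15 in KO (edgeR adjusted p = 4.71e-12 and 5.52e-13), Col4a2 by 2.68 ± 0.12 and 2.57 ± 0.12, and Col18a1 by 1.71 ± 0.072 and 1.83 ± 0.073. The difference between the genotypes in these responses was 0.27 ± 0.21, -0.11 ± 0.18 and 0.12 ± 0.10. Nid1, the basement membrane linker nidogen 1, was lower in WT LPS, with 23, 33 and 35 counts in WT UT and 14, 3 and 5 in WT LPS (-1.12 ± 0.47, edgeR adjusted p = 0.0399). With the replicate number as a block this was -1.08 (edgeR adjusted p = 0.0633) and not called, and it was not called either without WT LPS replicate 2 (-0.78) or 3 (-0.98) or WT UT replicate 2 (-1.06) or 3 (-1.04).

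**Figure D5:**
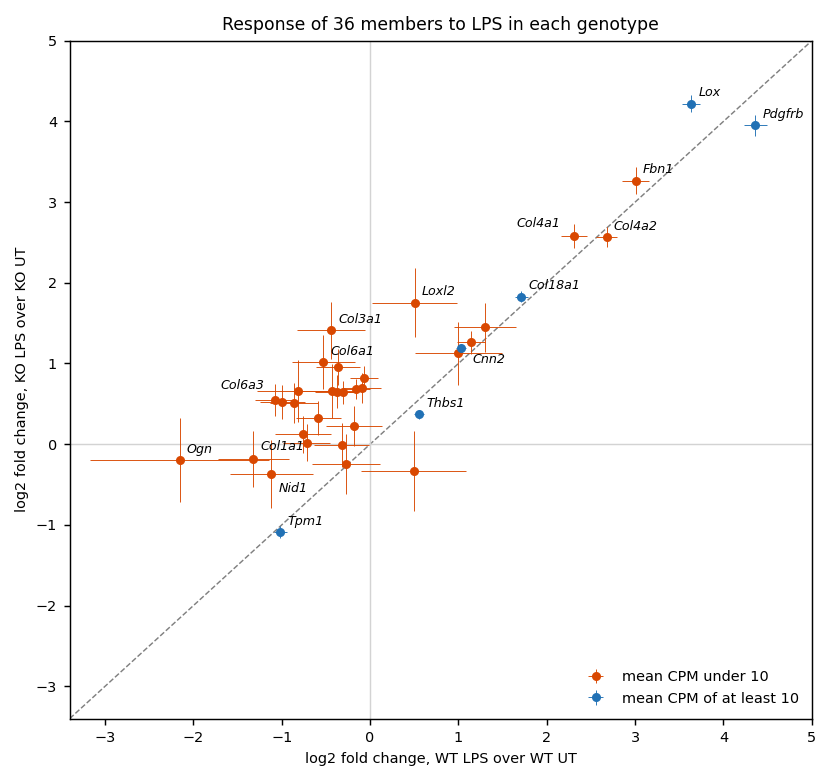
Log2 fold change with LPS in WT (x axis) and in KO (y axis) for 36 members, with SE bars; the dashed line marks equal responses and colour marks a mean CPM of at least 10 or under 10. Lox, Pdgfrb, Fbn1 and the basement membrane collagens lay far up and near the line, whereas most members under 10 CPM lay left of 0 in WT and above the line.

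Of the contractile members, Tpm1 fell with LPS in both genotypes, from 46.6 ± 2.12 to 23.1 ± 1.08 CPM in WT and from 56.5 ± 4.49 to 26.5 ± 1.80 in KO (log2 fold changes -1.01 ± 0.073 and -1.09 ± 0.072, edgeR adjusted p = 4.25e-11 and 8.50e-12). Its WT value sits at the fold limit, and it was -0.99 without WT UT replicate 3, -0.99 without WT LPS replicate 2 and just inside the limit without WT LPS replicate 3. Cnn2 rose by 1.03 ± 0.057 in WT and 1.19 ± 0.057 in KO (edgeR adjusted p = 4.46e-13 and 3.58e-14), and in WT it was below the fold limit under 6 alternatives, at 0.85 with upper-quartile scaling and between 0.98 and 0.99 with RLE scaling, DESeq2, no filter and 2 groups, beside library totals. Acta2 was picked for its level in KO LPS, so its responses are given without a test, at -0.16 ± 0.15 in WT and 0.68 ± 0.13 in KO. Myl9, Tagln and Cald1 gave -0.76 ± 0.32, -0.18 ± 0.31 and -0.99 ± 0.26 in WT and 0.12 ± 0.23, 0.23 ± 0.25 and 0.52 ± 0.21 in KO, and none of the 3 met the criteria in either genotype. Cald1 passed the p limit in both (edgeR adjusted p = 0.00158 in WT and 0.0327 in KO), and Myl9 in WT (0.0361).

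Of the 5 fibrillar and 3 collagen VI genes, Col1a1 and Col6a3 were called lower with LPS in WT, and Col3a1 and Col6a1 higher in KO. Col1a2 passed the p limit but not the fold limit in WT (-0.87 ± 0.27, edgeR adjusted p = 0.00713). So did Col5a2 (0.69 ± 0.18, edgeR adjusted p = 0.00206) and Col6a3 (0.55 ± 0.20, 0.0162) in KO. In WT, Col1a1 gave -1.32 ± 0.40 on the log2 scale (edgeR adjusted p = 0.00577), from 30, 30 and 41 counts to 10, 8 and 3. Col6a3 gave -1.08 ± 0.22 (edgeR adjusted p = 1.99e-04), and without WT LPS replicate 3 its log2 fold change was -0.86. Without WT LPS replicates 1, 2 and 3 in turn, 7, 2 and 2 members were called lower in WT in place of 4. In KO, Col3a1 rose by 1.41 ± 0.35 (edgeR adjusted p = 0.00115) and Col6a1 by 1.02 ± 0.33 (0.00953), beside -0.44 ± 0.38 and -0.53 ± 0.36 in WT. Col6a1 sits at the fold limit and was 0.95, 0.99 and 0.74 without KO LPS replicate 1, KO LPS replicate 2 and KO UT replicate 2. With upper-quartile scaling it was 0.83. With the small RNA covariate Col1a1 (-0.43) and Col6a3 (-0.59) were not called in WT, nor Col6a1 (0.94) and Col3a1 (-1.14) in KO. Summed, the fibrillar collagens in WT LPS were 0.708 times those in WT UT, and in KO LPS 1.47 times those in KO UT. Collagen VI gave 0.530 and 1.58.

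Among the remaining members, Igfbp7 rose in both genotypes by 1.14 ± 0.16 and 1.26 ± 0.14 (edgeR adjusted p = 1.35e-06 and 6.48e-08), and the surface protein gene Tm4sf1 by 1.30 ± 0.35 and 1.45 ± 0.30 (0.00235 and 1.86e-04). The WT value of Igfbp7 was 0.96 with upper-quartile scaling and 0.83 with the small RNA covariate, both under the fold limit, and the KO call of Tm4sf1 was lost with that covariate (1.03, edgeR adjusted p = 0.346). Igfbp7 overlaps Polr2b on the other strand. Thbs1 was higher after LPS in both, though under the fold limit, at 0.56 ± 0.054 and 0.37 ± 0.054 (edgeR adjusted p = 6.53e-09 and 2.92e-06). In KO, Loxl2 rose by 1.75 ± 0.42 (edgeR adjusted p = 8.62e-04) and Dcn by 1.12 ± 0.39 (0.0146), beside 0.50 ± 0.48 and 1.00 ± 0.49 in WT. The KO value of Dcn was 0.97 and 0.95 without KO UT replicates 2 and 3 and 0.94 with upper-quartile scaling. With the small RNA covariate Loxl2 (0.26) and Dcn (0.27) were not called in KO. Ccn2, picked like Acta2, gave -0.31 ± 0.17 in WT and 0.64 ± 0.14 in KO, without a test. Fn1, Postn and Serpinh1 passed the p limit but not the fold limit in KO, at 0.82 ± 0.15, 0.95 ± 0.23 and 0.65 ± 0.20 (edgeR adjusted p = 4.05e-05, 7.24e-04 and 0.0073). In WT the same was so for Bgn and Sparc, at -0.72 ± 0.26 and -0.59 ± 0.25 (edgeR adjusted p = 0.0192 and 0.0422). Ogn, at the floor in WT LPS, was not called in WT (edgeR adjusted p = 0.061), and in KO it gave -0.19 ± 0.52 (0.751).

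The response to LPS in KO minus that in WT holds the comparison on which the members were chosen, so it is a description too. By it 7 members were higher in KO, beside 0.522% of all genes, and 0 lower, beside 1.64%, namely Serpinh1, Col6a1, Col6a3, Cald1, Col1a2, Col3a1 and Postn. The median over 36 members was 0.77 and over all genes -0.0067. Col6a3 gave 1.63 ± 0.30, Col3a1 1.85 ± 0.52 and Cald1 1.51 ± 0.33. With the replicate number as a block, 5 members were called, with Col6a1 at 1.58 and Serpinh1 at 1.03 not called. Without WT LPS replicate 2 the count was 4, with Col3a1 at 1.69, Col6a1 at 1.40 and Serpinh1 at 0.79. Col3a1 was not called without WT UT replicate 3 either (1.63). The split over all genes went from 81 higher and 254 lower to 110 and 198 with RLE scaling, to 121 and 209 with DESeq2 and to 165 and 158 with library totals, with 8, 9 and 10 members higher. With the small RNA share as covariate 0 members were called, and Col1a2 (-0.63), Col3a1 (-2.18) and Postn (-0.86) changed sign.

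The other genes of these pathways came from lists that hold none of the members. Of 22 actin and serum response factor genes, all 22 were tested. In KO LPS against WT LPS 0 were called by edgeR, beside 0.586% of all genes higher and 0.664% lower. DESeq2 called 0 too and gave no adjusted p for Tgfb1i1. At an unadjusted p under 0.05, 11 were higher and 1 lower, and the median log2 fold change was 0.13. Srf itself gave 0.00019 ± 0.088, and among its targets Actb, cytoplasmic actin, gave 0.34 ± 0.046. With LPS, beside 19.1% up and 18.7% down of all genes in WT and 17.7% and 19.3% in KO, the calls were 7 up and 2 down in WT and 9 up and 1 down in KO, with Cnn3 (3.47 in WT and 3.33 in KO) and Itga5, an integrin chain that binds fibronectin (2.85 and 3.19), the furthest up. Of 13 genes of the YAP and TEAD pathway, which senses tension, 11 were tested, and 5 lay below 0 in KO LPS, 7 untreated. In KO LPS 2 were called higher, beside 0.586% of all genes. Without overlap 4 were higher and 1 lower in KO LPS, beside 14.1% and 14.9%. The list's summed CPM, mostly that of the receptor gene Axl (337 in WT LPS and 274 in KO LPS), was lower in KO without overlap, at 397 to 457 in WT LPS and 349 to 387 in KO LPS, and at 313 to 321 and 233 to 244 untreated. The called genes were Ccn1, a relative of Ccn2, with 24, 11 and 7 counts in WT LPS and 46, 69 and 49 in KO LPS (1.79 ± 0.34), and Yap1, a coactivator of TEAD factors, with 1, 2 and 3 in WT LPS, all at the floor, and 15, 20 and 15 in KO LPS. With LPS the calls were 2 up and 4 down in WT, and 3 up and 2 down in KO. Of 18 genes of collagen modification and processing, all 18 were tested. In KO LPS 1 was called higher, beside 0.586% of all genes (DESeq2 2, with no adjusted p for 1 gene). The gene called by edgeR was Loxl1, a crosslinking enzyme gene, with 4, 8 and 2 counts in WT LPS and 17, 21 and 22 in KO LPS (1.89 ± 0.61). Without overlap 11 of the 18 were higher in KO LPS and 0 lower, beside 14.1% and 14.9%. Untreated, edgeR called 1 higher in KO, beside 1.02%, and DESeq2 0, with no adjusted p for 2 genes. With LPS the calls were 5 up and 2 down in WT, and 8 up and 0 down in KO (DESeq2 8 and 0, and 5 down at an unadjusted p under 0.05). The shares over all genes given above for LPS apply to these lists too. The medians of these lists after LPS, 0.13, 0.12 and 0.20, stood beside -0.0075 for all genes.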

How the data were processed

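The authors aligned the paired-end reads of stranded total RNA libraries with HISAT2 2.1.0 to GRCm38 and counted reads per gene with featureCounts 2.0.0, as named in the submitters' processing notes. The deposited values are raw counts per gene. The annotation release, strand setting and treatment of multi-mapping reads are not given in the sources used here. Symbols came from GENCODE, matched on gene identifiers without version (48144 matched, 382 did not). Reads carry no molecular identifiers, so limits from counts cover counting error only.

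edgeR 4.0.16 (quasi-likelihood test, TMM scaling, R 4.3.3) was run on 12 libraries as 4 group means, after filterByExpr (minimum count 10), on 15523 genes, with Benjamini-Hochberg adjustment over all of them. The common biological coefficient of variation was 0.0712. The study used DESeq2, which was an alternative here (1.42.0), beside other scalings and filters, a replicate block, fits on 2 groups, and fits without each library. Library totals without a factor and a small RNA covariate were added after seeing the data. Batch numbers in the labels equal replicate numbers, so libraries of the same number were taken as possible pairs. Over 18 same-number pairs the deviations from group means correlated at -0.0631 to 0.0373, 0 above 0.1. Replicates differed by more than counting noise (chi-square per degree of freedom at least 3.81). The procedure was tested on simulated data. RPKM used merged exon lengths. Promoter windows came from RefSeq (GRCm38.p6).

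The members and lists were chosen with earlier results of these data known. All 38 members could be named, and of each other list at most 4 genes, those called after LPS with the largest change; Mfap4, Eln, Thy1, Dpt, Srf, Actb, Axl, Lyz2, Csf1r, Kdr, Vwf, Pecam1, Actg2, Tgfb1i1 and the overlapping genes were named after their values were seen. Lists for endothelial, B, T and megakaryocyte cells were summed, and 4, 1, 1 and 4 of their genes were tested. In KO LPS against WT LPS edgeR called 0, 0, 0 and 1 of them, beside 0.586% of all genes higher and 0.664% lower. The 1 gene was Gp9, called higher there and also in KO UT, beside 1.02%. By unadjusted p after LPS, 3 endothelial genes were lower and 2 megakaryocyte genes higher. DESeq2 called 0 genes of the 4 lists and gave no adjusted p for Gp9. Of the macrophage list C1qa was called higher in KO.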

Additional observations from a re-analysis of the deposited data

Results flagged for a closer look

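For 7 members the interaction term of LPS and genotype met the criteria for a call, and the values are a description because the members were chosen on one of its parts. The response in KO minus that in WT, as a log2 difference, was 1.03 for Serpinh1, 1.54 for Col6a1, 1.63 for Col6a3, 1.51 for Cald1, 1.38 for Col1a2, 1.85 for Col3a1 and 1.32 for Postn. In WT the log2 fold change with LPS was negative for each of the 7, from -1.08 in Col6a3 to -0.37 in Postn, and in KO it was positive, from 0.52 in Col1a2 to 1.41 in Col3a1. Of these, Col6a3, Cald1, Col1a2 and Postn were called in every fit that left out 1 library. With the small RNA share as covariate 0 of the 7 were called, and Col1a2 (-0.63), Col3a1 (-2.18) and Postn (-0.86) changed sign. No group had enough libraries for a search for outlying ones.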

How the results depend on the processing

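The genotype calls after LPS rest on members under 10 CPM. Fewer than 10 counts in at least 1 library stood behind 11 tested members, 8 of them called (Ogn, Col1a1, Col3a1, Col6a2, Loxl2, Myl9, Thbs2 and Dcn), which limits the precision of their values. Counts of called members were within 1.5 times the reported ones under most alternatives, and the exceptions follow. With no fold change minimum, 1 member was lower in KO LPS than in WT LPS, 13 were higher in KO UT than in WT UT, 9 were lower with LPS in WT, 22 higher with LPS in KO, and 11 higher by the interaction, beside 1015, 2196, 5487, 5445 and 1136 of all 15523 genes. Upper-quartile scaling gave 7 members lower with LPS in WT, keeping genes whose CPM averaged 1 or more gave 2 (fewer genes tested), and library totals without a factor gave 16, and 7 higher in KO. With the small RNA covariate, 7 were higher in KO LPS, 0 in KO UT, 1 lower with LPS in WT and 0 by the interaction (47, 47, 2410 and 51 of all genes), and Nid1 (LPS in WT, 0.22), Col3a1 (LPS in KO, -1.14), and Col1a2, Col3a1 and Postn (interaction, -0.63, -2.18 and -0.86) changed sign; the cause was not tested. The replicate block gave 21, 5, 9 and 3, 13 and 1, and 5 called members in the same order and changed no call beyond those given with the results. Leaving out 1 library gave 15 to 22 members higher in KO LPS, 3 to 6 in KO UT, 9 to 10 higher and 2 to 7 lower with LPS in WT, 12 to 13 higher and 1 lower in KO, and 4 to 10 by the interaction. No member was lower by a call in either genotype comparison or the interaction under the other alternatives.

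The summed level of the fibroblast-defining members gave log2 ratios of 0.48 for KO LPS over WT LPS and 0.099 for KO UT over WT UT, the latter -0.052 with library totals. With LPS it was 2.67 in WT and 3.05 in KO, 2.01 and 2.54 with library totals, and 1.35 and 1.58 without Lox. The sum over all members gave 0.0052 for KO LPS over WT LPS and 0.36 without Thbs1. For KO UT over WT UT it gave 0.021, -0.052 with RLE scaling, -0.13 with library totals and 0.19 without Thbs1. With LPS it gave 0.78 in WT and 0.76 in KO, 0.12 and 0.26 with library totals, and 1.36 and 1.53 without Thbs1.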
